A study of Mus musculus with 6 samples.

Results

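The genes described here are 56 genes of mitosis, of the kinetochore and of condensin, given as a list of names by their role in cell division. Of these, 55 had a probe set that named them alone, and they are described here among 18193 genes represented on the arrays. Cyclin B1 (Ccnb1) is the gene not analysed here. The list's Sgol1 appears under its current symbol Sgo1. Where several probe sets named a gene, the one with the highest average across the 6 arrays stood for it, and the 55 genes passed the filter on low values.

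RNA came from myeloid cells sorted from femur and tibia marrow of female-labelled Hdc-GFP mice on a C57BL/6 background. In this reporter strain green fluorescent protein marks activity of Hdc, which encodes the histamine-forming enzyme, so both groups were limited to reporter-positive or reporter-high cells that also carried CD11b. The Gr1lo group (3 arrays) had low and the Gr1hi group (3 arrays) high staining for Gr1, and no treatment or age is given. The labels do not say whether replicates were separate or pooled animals. The p-values thus cover the spread between these samples only, which may be technical, and the number of arrays limits the precision.

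During mitosis CDK1 with cyclins A and B drives the cell into division, Aurora and Polo-like kinases build the spindle, condensin compacts the chromosomes, and kinetochores hold them on spindle microtubules. The spindle checkpoint delays anaphase until every kinetochore is attached. The anaphase-promoting complex with CDC20 then marks cyclin B and securin for destruction, which frees separase to cut the cohesin that holds sister chromatids together. In bone marrow, myeloblasts, promyelocytes and myelocytes divide, whereas metamyelocytes and later neutrophils do not.

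Some facts of the arrays precede the results. Values are log2 probe set values, and differences are Gr1hi minus Gr1lo on that scale unless a fold is given. Xist, an RNA of female cells, lay between 1.97 and 2.43 on the replicate 1 and 2 arrays of both groups but at 10.95 and 10.14 on the replicate 3 arrays, while the Y-linked Eif2s3y lay between 9.02 and 10.66 on all 6, against the female label. Counts are therefore also given without both replicate 3 arrays. The neutrophil marker S100a8 read 14.87 in Gr1lo and 14.94 in Gr1hi, a difference that did not pass the test. Probe sets for an absent bacterial transcript read at most 2.77, which serves as the background level.

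Cell division transcripts were far lower in Gr1hi. Of the 55 genes 52 fell, 1 rose and 2 did not pass the test (limma, Benjamini-Hochberg adjusted p under 0.05 over 12739 genes), where 31.8% of all tested genes were called lower and 24.6% higher. The gene that rose was Pttg1, which encodes securin, and the 2 that were not called were Cdc25b and Kif15. In each of the 52 that fell, every Gr1hi array was below every Gr1lo array, as in 34.7% of all tested genes. Falls of at least 4-fold were seen in 48 of the 55 (9.04% of all tested genes) and of at least 8-fold in 36 (4.27%).

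The median difference was -3.39 over the 55 genes and 0.03 over all tested genes. Among the 52 that fell, the fall ranged from 2.05-fold in Kif23 to 50.6-fold in Cenpk, with a median of 11.0-fold. Their lowest Gr1lo array and highest Gr1hi array were a median of 3.13 apart, and in 46 of the 52 this gap was over 2. In bulk samples fewer dividing cells and less transcript per cell cannot be told apart. The scale mattered little for the count: 51 fell when each array was centred on the median of its kept genes (18.2% of all tested genes lower), a scale that moved the median of all genes from 0.03 to 0.70, and 52 fell when the hybridization controls set the centre, where that median was -0.23. Without both replicate 3 arrays 52 fell, 1 rose, and the median difference was -3.17.

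**Figure D1:**
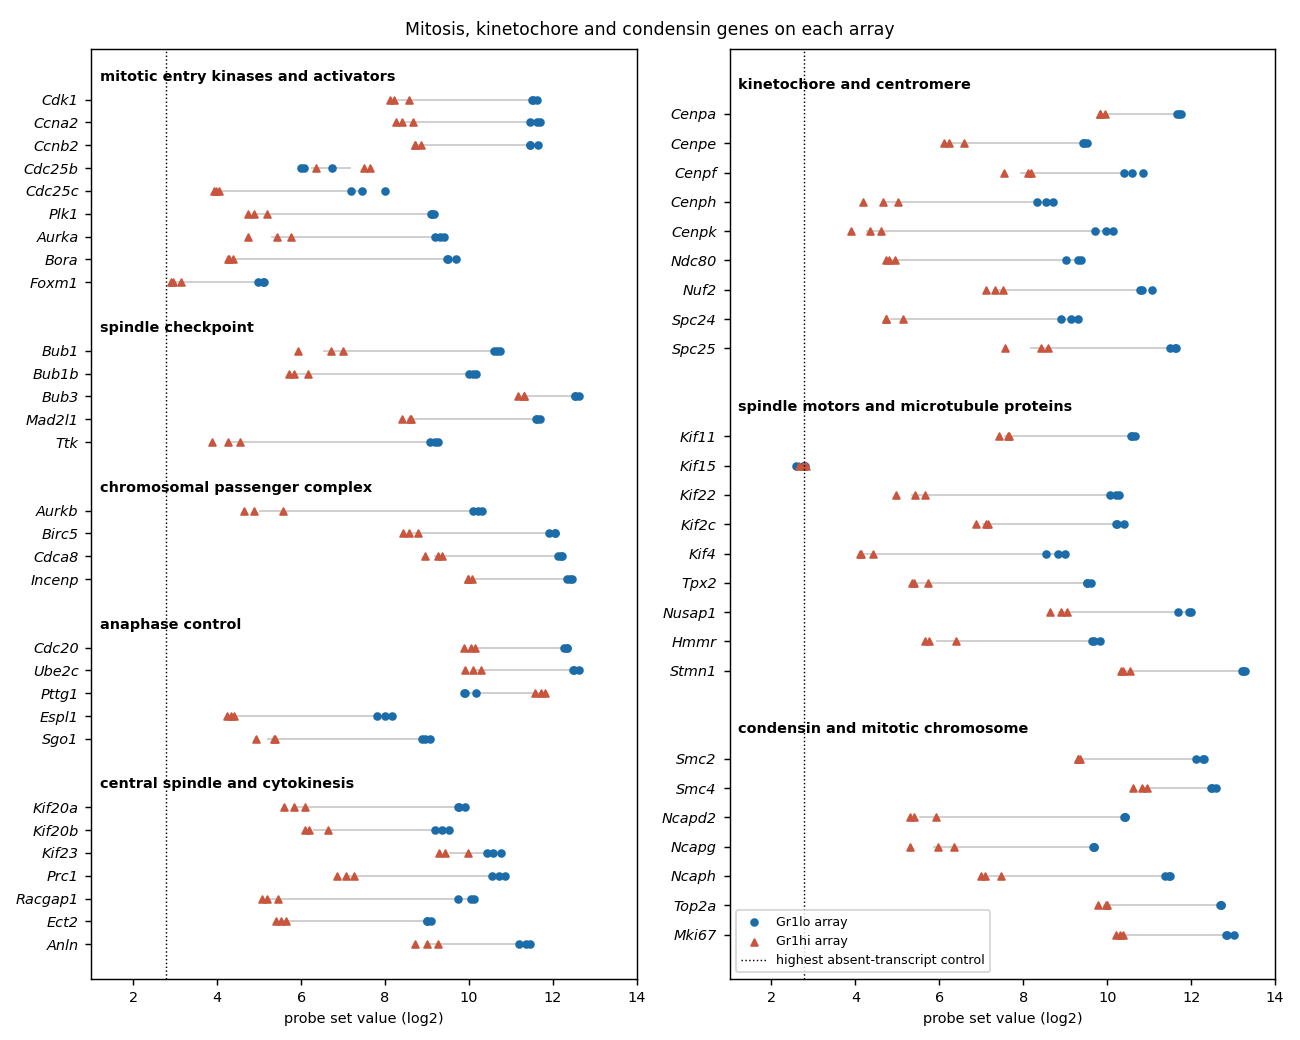
Probe set values (log2, x axis) of the 55 genes on each of the 3 Gr1lo arrays (circles) and 3 Gr1hi arrays (triangles), grouped by role, with a grey line between the group means and a dotted line at 2.77, the highest value of the absent-transcript controls. The triangles lie to the left of the circles in 52 genes, to the right in Pttg1, and mix with them in Cdc25b and Kif15.

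Genes that drive entry into mitosis fell in 8 of 9. Cdk1, the central mitotic kinase, read 11.49, 11.53 and 11.61 on the Gr1lo arrays of replicates 1, 2 and 3 and 8.22, 8.57 and 8.13 on the Gr1hi arrays. Every Gr1hi array was below every Gr1lo array, and the difference was -3.24 (SE 0.13, limma adjusted p = 1.67e-07), a 9.44-fold fall. Its cyclin partners fell by similar amounts, Ccna2 from 11.59 ± 0.12 to 8.44 ± 0.20 (SD, n = 3 per group, as for all such values) and Ccnb2 from 11.52 ± 0.11 to 8.75 ± 0.09.

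The mitotic kinase genes Plk1 and Aurka also fell. Plk1, a kinase of centrosome maturation and spindle assembly, stood at 9.11, 9.10 and 9.16 in Gr1lo and 5.18, 4.87 and 4.72 in Gr1hi, a difference of -4.20 (SE 0.17, adjusted p = 1.74e-07). Bora, the cofactor through which Aurora A activates PLK1, read 9.68, 9.46 and 9.51 against 4.37, 4.26 and 4.28. This 38-fold fall (-5.25, SE 0.16, adjusted p = 1.09e-07) was the deepest in the group, and its other probe set fell by 3.51. Aurka, the centrosomal Aurora kinase, fell 16-fold, with Gr1hi arrays at 5.42, 5.77 and 4.73, the lowest of them replicate 3. The other probe set of Aurka read 3.57 in Gr1lo and differed by -0.62. Foxm1, a transcription factor of late cell cycle genes, fell from 5.06 ± 0.07 to 3.00 ± 0.13, so its Gr1hi level lay close to the background of 2.77 and the size of its fall depends on that background.

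Of the phosphatase genes that activate CDK1, Cdc25c fell and Cdc25b did not pass the test. Cdc25c fell by 3.57, from 7.54 ± 0.41 to 3.98 ± 0.06, and its other probe set fell by 2.05. Cdc25b, which starts CDK1 activation at the centrosome, read 5.99, 6.07 and 6.74 in Gr1lo and 6.36, 7.49 and 7.63 in Gr1hi. Gr1hi replicate 1 lay within the Gr1lo values and the other two Gr1hi arrays above them. The difference of 0.89 (95% confidence interval 0.11 to 1.67) did not pass the test (limma adjusted p = 0.0522). It passed without Gr1hi replicate 1 (1.29, adjusted p = 0.00362) and without Gr1lo replicate 3 (1.13, adjusted p = 0.0269). With replicate number as a block in limma it also passed (adjusted p = 0.0106), so the call of Cdc25b depends on the model. Over the alternatives its adjusted p-values ran from 0.00172 to 0.513.

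Each of the 5 spindle checkpoint genes fell. Ttk, the kinase that starts the checkpoint signal at unattached kinetochores, read 9.19, 9.06 and 9.25 in Gr1lo and 4.54, 4.25 and 3.87 in Gr1hi, a 30.8-fold fall (-4.94, SE 0.20, adjusted p = 1.74e-07). The other probe set of Ttk read 4.81 in Gr1lo and differed by -1.81. Bub1 fell by 4.12 and Bub1b, which encodes the checkpoint protein BUBR1, by 4.19. Mad2l1, whose product binds and holds CDC20, fell from 11.63 ± 0.04 to 8.54 ± 0.12. Bub3 fell least, from 12.53, 12.53 and 12.61 to 11.16, 11.31 and 11.32, a 2.45-fold difference (-1.29, SE 0.08, adjusted p = 1.08e-06). The product of Bub3 carries BUB1 and BUBR1 to kinetochores. Its 4 other probe sets differed by -1.33, -0.63, -0.58 and -0.14, the last not called.

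All 4 genes of the chromosomal passenger complex, which corrects faulty attachments and later guides cytokinesis, fell. Aurkb, its kinase, read 10.31, 10.22 and 10.10 in Gr1lo and 5.58, 4.87 and 4.63 in Gr1hi. Its 36.4-fold fall (-5.18, SE 0.24, adjusted p = 2.52e-07) was matched by -4.83 in its other probe set. Birc5, which encodes survivin, fell by 3.41, Cdca8, which encodes borealin, by 2.98, and the scaffold gene Incenp by 2.38. For Cdca8 and Incenp the amount depended on the probe set. Other probe sets of Cdca8 fell by 4.52 and 3.56. Of those of Incenp, 3 fell, the deepest by 3.91, and 1 was not called (0.05).

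Genes of anaphase control moved in opposite directions: 4 fell and Pttg1 rose. Pttg1 encodes securin, the inhibitor and chaperone of separase, and read 9.90, 9.87 and 10.16 in Gr1lo and 11.81, 11.56 and 11.72 in Gr1hi. Every Gr1hi array was above every Gr1lo array, and the rise of 1.72 (SE 0.11, limma adjusted p = 1.79e-06) kept its direction and its call under each alternative tried, with values between 1.46 and 2.40. The other two Pttg1 probe sets also rose, one from 3.63, 3.47 and 3.28 to 5.60, 5.36 and 6.15 and one from 6.44, 6.85 and 6.17 to 8.63, 8.18 and 8.68, by 2.24 and 2.01.

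Espl1, which encodes separase, the enzyme that securin restrains, moved the other way, from 7.99 ± 0.17 to 4.32 ± 0.08 and without overlap (-3.67, SE 0.18, adjusted p = 3.45e-07). Sgo1, whose product shields centromeric cohesin until anaphase, fell from 8.97 ± 0.10 to 5.22 ± 0.25, and its other probe set fell by 3.56. Cdc20, the activator of the anaphase-promoting complex, fell from 12.33, 12.26 and 12.34 to 10.04, 10.15 and 9.89, and other probe sets of it fell by 2.76 and 2.00. Ube2c, the ubiquitin-conjugating enzyme of that complex, fell by 2.44. Securin's transcript was thus the exception among the 5, whose other members were 4.87-fold to 13.4-fold lower in Gr1hi.

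**Figure D2:**
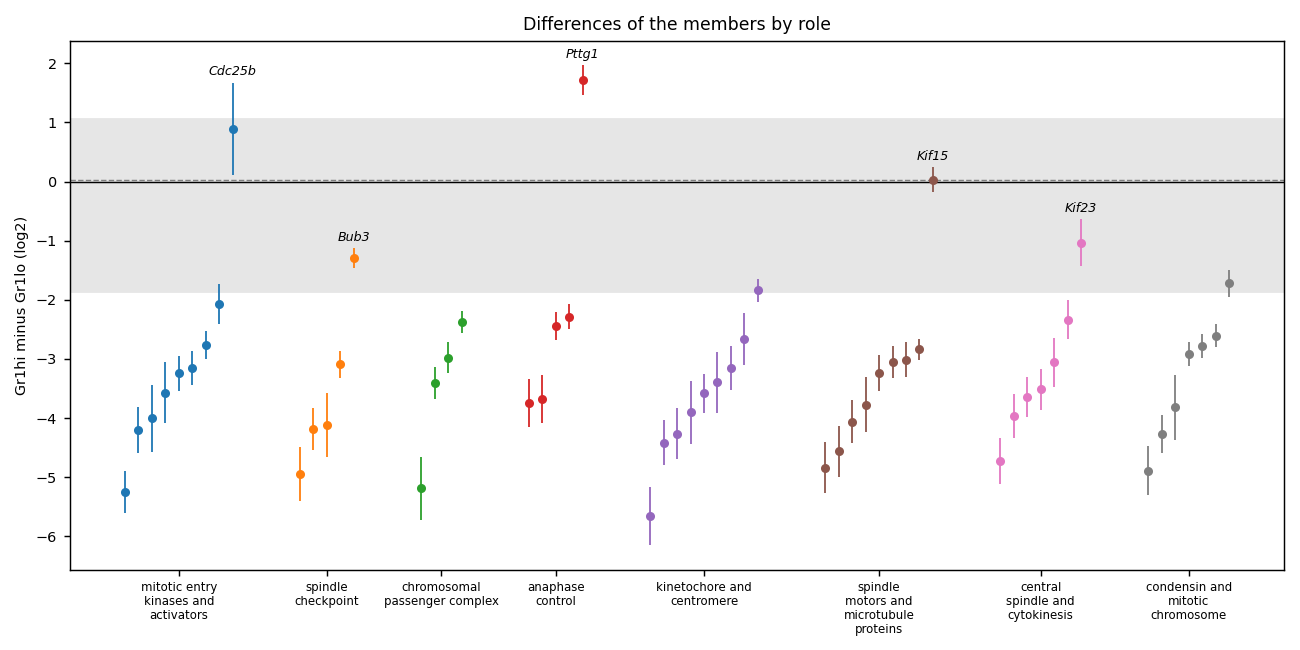
Difference between the groups (Gr1hi minus Gr1lo, log2, y axis) of each of the 55 genes with its 95% confidence interval from limma, ordered by role along the x axis and by size within a role. The grey band spans the 10th to 90th percentile of all tested genes (-1.87 to 1.05) and the dashed line their median (0.03); Cdc25b and Pttg1 lie above 0, Kif15 at 0.03, and Kif23 and Bub3 show the smallest falls.

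All 9 kinetochore and centromere genes fell. Cenpk, a subunit of the inner kinetochore complex that stays on centromeres through the cell cycle, read 9.98, 10.13 and 9.71 in Gr1lo and 4.35, 3.89 and 4.60 in Gr1hi, the deepest fall of the 55 (-5.66, SE 0.22, adjusted p = 1.47e-07). Its other probe sets fell by 3.87 and 1.93. Cenph, of the same inner complex, fell by 3.90.

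The NDC80 complex, which grips the microtubule end, has its subunits encoded by Ndc80, Nuf2, Spc24 and Spc25, and they fell by 4.41, 3.58, 4.26 and 3.39. Ndc80 stood at 9.30, 9.02 and 9.38 in Gr1lo and 4.95, 4.72 and 4.79 in Gr1hi, without overlap. For Spc25 the Gr1hi arrays read 8.58, 8.41 and 7.57, with replicate 3 well below the other two. Cenpe, a kinetochore motor, fell from 9.46 ± 0.05 to 6.31 ± 0.25, and the large corona protein gene Cenpf from 10.61 ± 0.22 to 7.95 ± 0.36. Cenpa, the histone variant that marks centromeres, fell least of the 9, from 11.71, 11.65 and 11.75 to 9.96, 9.83 and 9.82 (-1.84, SE 0.09, adjusted p = 3.26e-07).

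Of 9 genes of spindle motors and microtubule proteins 8 fell. Kif22, a chromosome-arm motor, read 10.28, 10.22 and 10.07 in Gr1lo and 5.66, 5.43 and 4.98 in Gr1hi (-4.84, SE 0.19, adjusted p = 1.63e-07), and its other probe sets fell by 3.65 and 1.94. The chromokinesin gene Kif4 fell by 4.56 and Tpx2, which activates Aurora A on the spindle, by 4.06. Kif11, the motor that pushes spindle poles apart, fell from 10.61 ± 0.05 to 7.56 ± 0.13, and the microtubule depolymerase gene Kif2c from 10.28 ± 0.09 to 7.05 ± 0.14. Hmmr, Nusap1 and Stmn1, which encode microtubule-binding proteins, fell by 3.78, 3.01 and 2.84. The Stmn1 arrays were tight, at 13.29, 13.21 and 13.24 in Gr1lo and 10.53, 10.36 and 10.33 in Gr1hi.

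Kif15, a motor that can share the work of Kif11, was read by a single probe set at 2.75, 2.59 and 2.79 in Gr1lo and 2.75, 2.82 and 2.66 in Gr1hi. These values lie close to those of the absent-transcript controls, and they say nothing of a difference (0.03, 95% confidence interval -0.18 to 0.24, limma adjusted p = 0.821).

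All 7 genes of the central spindle and of cytokinesis fell. Racgap1, a subunit of centralspindlin, read 10.04, 9.73 and 10.11 in Gr1lo and 5.07, 5.44 and 5.18 in Gr1hi (-4.73, SE 0.17, adjusted p = 1.31e-07). Kif23, the motor subunit of the same complex, had a smaller difference, from 10.77, 10.44 and 10.57 to 9.96, 9.42 and 9.28. The gap between its lowest Gr1lo and highest Gr1hi array was 0.47, the narrowest of the 52 (-1.04, SE 0.18, adjusted p = 7.40e-04). Kif23 lost its call under centring on the kept genes' median (-0.36, adjusted p = 0.0885) and against a 1.5-fold difference (adjusted p = 0.0523; 1.20e-06 to 0.0885 over all alternatives), and its other probe sets fell by 1.44 and 0.68.

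The other genes of this group had larger differences than Kif23. Ect2, which centralspindlin recruits to activate RhoA, fell from 9.03 ± 0.05 to 5.52 ± 0.12. Prc1, which bundles midzone microtubules, fell by 3.65, and the midzone kinesin gene Kif20a by 3.97 and Kif20b by 3.05. Anln, which encodes the contractile ring scaffold anillin, fell by 2.34, with Gr1hi arrays at 9.26, 8.99 and 8.72.

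All 7 genes of condensin and of the mitotic chromosome fell. Ncapd2, a regulatory subunit of condensin I, was nearly constant in Gr1lo (10.43, 10.42 and 10.41) and read 5.39, 5.30 and 5.92 in Gr1hi (-4.89, SE 0.18, adjusted p = 1.34e-07). The other probe set of Ncapd2 read 4.73 in Gr1lo and differed by -2.03. The other condensin I subunit genes Ncaph and Ncapg fell by 4.27 and 3.81, and their other probe sets by 4.52 and 4.47.

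The ATPase subunits, which both condensins share, fell less on the probe sets used. Smc4 read 12.58, 12.47 and 12.49 in Gr1lo and 10.94, 10.83 and 10.61 in Gr1hi (-1.72, SE 0.10, adjusted p = 8.18e-07), and its other probe sets fell by 1.97 and 1.74. Smc2 fell by 2.91, from 12.23 ± 0.10 to 9.32 ± 0.03, and its 4 other probe sets differed by -4.46, -3.99, -3.02 and -1.89, so its order beside the regulatory subunits rests on the probe set. The subunit genes of condensin II, which are not among the 55, also fell, with differences of -3.34 (Ncapd3), -3.17 (Ncapg2) and -2.15 (Ncaph2). Top2a, which untangles sister chromatids, differed by -2.78 and by -4.04 on another probe set, while its remaining probe set did not pass the filter on low values. Mki67, which coats mitotic chromosomes and is a routine marker of cycling cells, read 13.02, 12.84 and 12.83 against 10.37, 10.30 and 10.21, still far above background in Gr1hi.

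The other probe sets of these genes allowed a check with different probes on the same RNA. Of 71 other probe sets, in 38 genes, 65 passed the filter on low values; 61 of these fell, 2 rose and 2 were not called, and both that rose were those of Pttg1. Among the 63 other probe sets of genes that fell, 21 fell further than the probe set used and 42 less. The 21 had a median Gr1lo value of 9.69 and the 42 one of 4.97. Of the probe sets used, 7 end in _s_at and 6 in _x_at, endings that Affymetrix gives to probe sets that can also detect other transcripts, and Pttg1 and Bub3 are among the former.

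**Figure D3:**
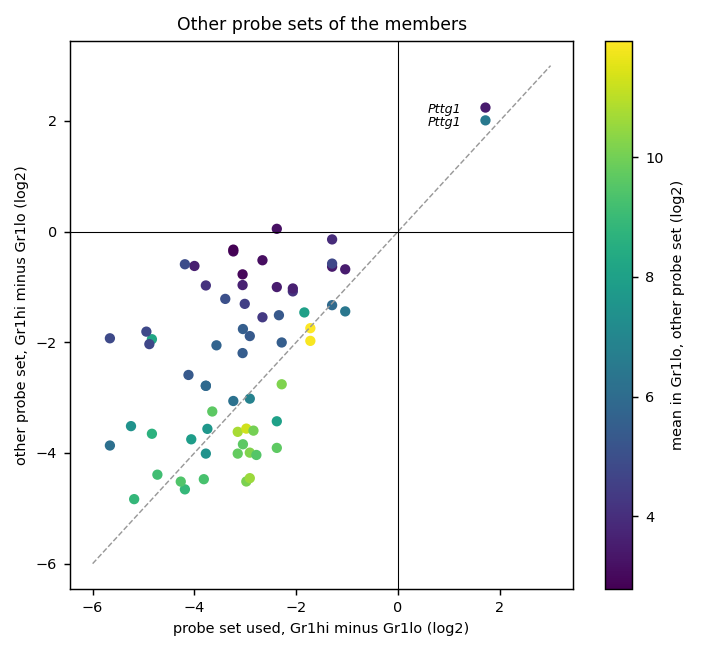
Difference between the groups (Gr1hi minus Gr1lo, log2) on each of the 65 other probe sets (y axis) against that of the probe set used for the same gene (x axis), coloured by the mean of the other probe set in Gr1lo, with a dashed line of equality. The 2 labelled Pttg1 points are the ones in the upper right, and dim probe sets lie nearer to 0.

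Promoters of late cell cycle genes often hold the cell cycle homology element, TTTGAA or TTCGAA, which MuvB complexes bind, and CCAAT boxes, which NF-Y binds. Both were searched on both strands in the 250 bases before each annotated start (RefSeq, GRCm38.p6), where 44 of the 55 genes had 49 windows. TTTGAA or TTCGAA occurred in 40.8% of these windows and in 17.1% of all 32851 windows of that length. CCAAT occurred in 73.5% and 33.8%, and both elements together in 36.7% and 6.02%. These are matches of letters, not shown binding sites. The last 120 bases before the start are printed for 6 genes that fell and hold both elements, and for Pttg1, which rose, with matches in capitals (TTCAAA and ATTGG are the same elements on the opposite strand). The stretches are Cdk1 from chr10:69352913-69353032 (minus strand), Top2a from chr11:99024190-99024309 (minus strand), Cdc20 from chr4:118437344-118437463 (minus strand), Ube2c from chr2:164769809-164769928 (plus strand), Espl1 from chr15:102296173-102296292 (plus strand), Kif11 from chr19:37376262-37376381 (plus strand) and Pttg1 from chr11:43425982-43426101 (minus strand).
Cdk1: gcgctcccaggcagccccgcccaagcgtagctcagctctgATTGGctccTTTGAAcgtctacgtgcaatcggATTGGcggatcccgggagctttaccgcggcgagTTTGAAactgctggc
Top2a: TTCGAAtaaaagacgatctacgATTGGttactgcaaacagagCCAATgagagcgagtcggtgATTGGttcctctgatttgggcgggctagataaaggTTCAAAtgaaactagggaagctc
Cdc20: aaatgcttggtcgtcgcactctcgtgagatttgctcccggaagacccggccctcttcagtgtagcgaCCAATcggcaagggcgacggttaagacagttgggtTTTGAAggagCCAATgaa
Ube2c: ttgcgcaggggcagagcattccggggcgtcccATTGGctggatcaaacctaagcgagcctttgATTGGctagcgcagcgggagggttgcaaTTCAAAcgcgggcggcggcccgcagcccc
Espl1: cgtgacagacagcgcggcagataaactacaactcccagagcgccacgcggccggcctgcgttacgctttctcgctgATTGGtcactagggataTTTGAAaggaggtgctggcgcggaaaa
Kif11: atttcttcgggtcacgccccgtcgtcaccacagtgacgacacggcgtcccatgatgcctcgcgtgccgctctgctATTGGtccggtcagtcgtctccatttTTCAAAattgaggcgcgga
Pttg1: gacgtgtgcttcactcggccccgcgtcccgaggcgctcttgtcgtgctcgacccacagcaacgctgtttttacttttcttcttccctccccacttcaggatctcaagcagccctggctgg
The 6 genes hold a TTTGAA element between 15 and 29 bases before the start and 1 or more CCAAT boxes. They were chosen from 16 genes holding both, so this position describes only the genes printed. Of 17 genes that fell and hold TTTGAA or TTCGAA, 9 had a match in the last 40 bases before the start. Neither element was found in the 250 bases before the annotated start of Pttg1, nor in those of 10 genes that fell, Ndc80, Birc5 and Ncaph among them, so 11 of the 44 genes with a window lacked both. Kif15, which was at background, has TTCAAA 19 bases before its start, and Cdc25b has a CCAAT box but no TTTGAA or TTCGAA in its window.

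Replicates of the 55 genes spread more in Gr1hi than in Gr1lo. The median SD between replicates was 0.21 in Gr1hi and 0.10 in Gr1lo, against 0.15 in both groups over all tested genes, and the SD was larger in Gr1hi in 43 of 55 genes (50.3% of all tested genes). The wider spread was not particular to the 55. Median SDs in Gr1hi and Gr1lo were 0.21 and 0.15 in 139 related genes, and 0.54 and 0.22 in 6 granulocyte precursor markers. Values were also lower in Gr1hi, and whether the spread depends on the level was not tested. In Gr1hi, replicate 1 was the highest array in 30 genes and replicate 3 the lowest in 39. Their median deviations from the group mean were 0.09 and -0.14, with 0.03 for replicate 2, while medians over all tested genes were within 0.01 of 0. In Gr1lo the deviations were smaller, 0.05, -0.05 and -0.02 in replicates 1, 2 and 3.

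Markers of granulocyte precursors moved with the division genes. All 6 such markers fell, beside 31.8% of all tested genes called lower. Their summed level ran from 15.56 to 15.91 on Gr1lo arrays and from 10.96 to 11.92 on Gr1hi arrays. Within Gr1hi they were also highest in replicate 1, as in Elane, which encodes neutrophil elastase, at 5.26, 4.54 and 4.05. Their part in the result was not tested. Gr1hi replicate 1 was the highest Gr1hi array in 30 of the 55 division genes, and a link between these patterns was not tested.

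**Figure D4:**
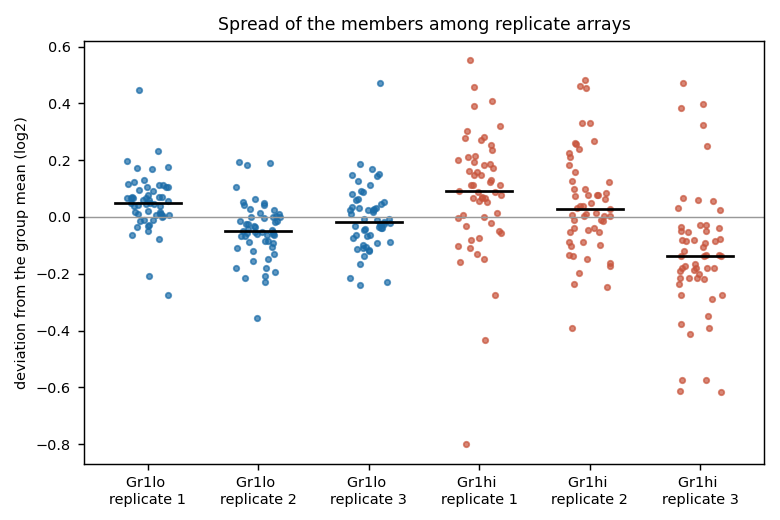
Deviation of each of the 55 genes from its own group mean (log2, y axis) on each array (x axis), with a black bar at the median of the array. The bars lie at 0.05, -0.05 and -0.02 in Gr1lo and at 0.09, 0.03 and -0.14 in Gr1hi, and the points spread more widely in Gr1hi.

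Other marrow cells that divide were looked for through their markers. All 7 erythroid markers with a probe set, Gata1, Klf1, Alas2 and Hba-a1 among them, lay at or below the background of 2.77 in both groups, with summed levels of 4.98 to 5.11 in Gr1lo and 5.13 to 5.28 in Gr1hi. The 9 B cell markers summed to 6.55 to 6.69 in Gr1lo and 6.48 to 6.82 in Gr1hi, with Rag1 and Vpreb3 at background. Of 7 tested, 1 was lower and 3 higher, beside 31.8% and 24.6% of all tested genes. Centring on the kept genes' median gave 0 lower and 6 higher, beside 2313 and 8354 of all 12739 tested genes. Centring on the hybridization controls gave 1 and 1, beside 4848 and 1861. T and NK cell markers summed to 5.64 to 6.14 and 8.58 to 8.82, with Cd3d at 4.32 and 8.49 and Cd3e, Cd3g and Ncr1 at background. Of 5 tested, 4 were higher and 0 lower, beside 24.6% and 31.8% of all tested genes. Centring on the kept genes' median gave 5 higher and on the hybridization controls 1, with 0 lower in both. Basophil and mast cell markers summed to 6.51 to 8.07 and 5.40 to 8.20, eosinophil markers to 8.23 to 8.77 and 8.22 to 8.47, and megakaryocyte markers to 6.20 to 6.33 and 5.82 to 6.01.

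Summed levels of other myeloid markers were higher in Gr1hi. Monocyte and macrophage markers summed to 9.98 to 11.00 in Gr1lo and 12.14 to 12.45 in Gr1hi (3 of 8 higher, 1 lower). Dendritic cell markers summed to 4.63 to 4.86 and 5.89 to 6.88 (1 of 2 tested higher, and 3 of 5 at background in both groups). Neutrophil markers summed to 17.13 to 17.35 and 17.54 to 17.60 (4 of 10 higher). Of all tested genes 24.6% were called higher. A sum of unlogged values is carried mostly by the brightest markers. Under centring on the kept genes' median 10 of 10 neutrophil markers were called higher, and 4 monocyte and macrophage markers higher with 0 lower. That scale called 8354 of all 12739 tested genes higher and 2313 lower. Under centring on the hybridization controls 4 neutrophil markers were higher, and 3 monocyte and macrophage markers higher with 3 lower. Of all tested genes 1861 were then higher and 4848 lower. The part of these cells in the falls was not tested.

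Genes of cell division outside the 55 were read from further lists. Of 115 such genes tested, DNA replication aside, 93 fell, 5 rose and 17 were not called. Of all tested genes 31.8% were called lower and 24.6% higher. Among other kinetochore genes 28 of 30 fell, with a median difference of -2.85. Cenpi, of the inner kinetochore, fell by 5.48, Zwilch, which brings dynein to kinetochores, by 4.94, and Ska1, which tracks microtubule ends, by 4.28. Mad1l1, the partner of MAD2 at kinetochores, read 2.70 and 2.85, near background, and did not pass the test.

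Among other spindle and cytokinesis genes 28 of 31 fell and 1 rose, beside 31.8% of all tested genes called lower and 24.6% higher. Tacc3, a spindle protein that Aurora A phosphorylates, fell by 4.08, and the augmin subunit gene Haus1 by 4.87. The gene that rose was Kif2a, a relative of Kif2c, at 9.33, 8.94 and 9.25 in Gr1lo and 9.81, 9.47 and 9.65 in Gr1hi (0.47, limma adjusted p = 0.0197). Its call was lost without Gr1lo replicate 2 (adjusted p = 0.0527), Gr1hi replicate 1 (0.0763) or Gr1hi replicate 3 (0.0527), without both replicate 3 arrays (0.0754) and under centring on the hybridization controls (0.335).

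Regulators of CDK1 fell in 8 of 10, beside 31.8% of all tested genes called lower. These included its inhibitory kinases, Wee1 by 4.38 and Pkmyt1 by 4.29, together with the activating phosphatase gene Cdc25a by 3.23. Ensa, whose product blocks the phosphatase that opposes CDK1, rose from 9.28, 9.29 and 9.53 to 10.69, 10.69 and 10.58 (1.29, adjusted p = 8.58e-06), while its relative Arpp19 fell by 0.79 and their kinase gene Mastl by 1.82.

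The anaphase-promoting complex and cohesin, which also work outside mitosis, had smaller median differences. In the list of the anaphase-promoting complex 12 of 16 fell and none rose (8 fell and 4 rose under centring on the kept genes' median), with a median of -0.91. The main fit called 31.8% of all tested genes lower and 24.6% higher. That centring called 8354 of all 12739 tested genes higher and 2313 lower. Anapc5 fell by 2.42 and the E2 gene Ube2s fell by 1.78, while Fbxo5, the inhibitor EMI1 of the complex, fell from 10.30 ± 0.15 to 6.42 ± 0.37. Fzr1, which encodes the activator CDH1 used after mitosis, fell by 0.75. In the cohesin list 8 of 14 fell and 2 rose (7 and 6 with that centring), with a median of -0.97.

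In the cohesin list the calls went both ways. Esco2 and Cdca5, which establish and protect cohesion in replicating cells, fell by 4.94 and 4.36, and the ring subunit genes Smc1a, Smc3 and Rad21 by 1.66, 1.77 and 1.03. The cohesin loader genes rose: Mau2 read 5.99, 5.86 and 6.19 in Gr1lo and 8.08, 7.93 and 8.25 in Gr1hi (2.07, limma adjusted p = 7.43e-06), and Nipbl rose by 0.57. The size of the Mau2 rise depended on the probe set, since it was 1.07 with the mean of the gene's probe sets. The rise of Nipbl was lost under centring on the hybridization controls (adjusted p = 0.112).

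Of 11 tested genes of the MuvB and DREAM complexes, which repress or activate late cell cycle genes, 6 fell and 1 rose (5 and 4 under centring on the kept genes' median). That centring called 2313 of all 12739 tested genes lower and 8354 higher, and the main fit 31.8% lower and 24.6% higher. Of genes of the MuvB core, which both forms share, Lin9 fell by 3.02 and Rbbp4 by 1.24. Lin37, Lin52 and Lin54 were not called. Mybl2, of the activating form, fell by 2.26, but its Gr1lo arrays spread widely, at 5.33, 6.52 and 4.31. Its Gr1hi mean of 3.13 was near background. Rbl1, which encodes a pocket protein, fell by 3.61. Rbl2, which encodes the pocket protein of resting cells, rose from 8.82, 8.28 and 8.26 to 9.25, 9.04 and 9.25 (0.73, adjusted p = 0.00533), a call lost without both replicate 3 arrays (0.59, adjusted p = 0.0627). In DNA replication genes 23 of 24 fell, with a median of -4.54 beside -3.39 in the 55 mitotic genes.

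**Figure D5:**
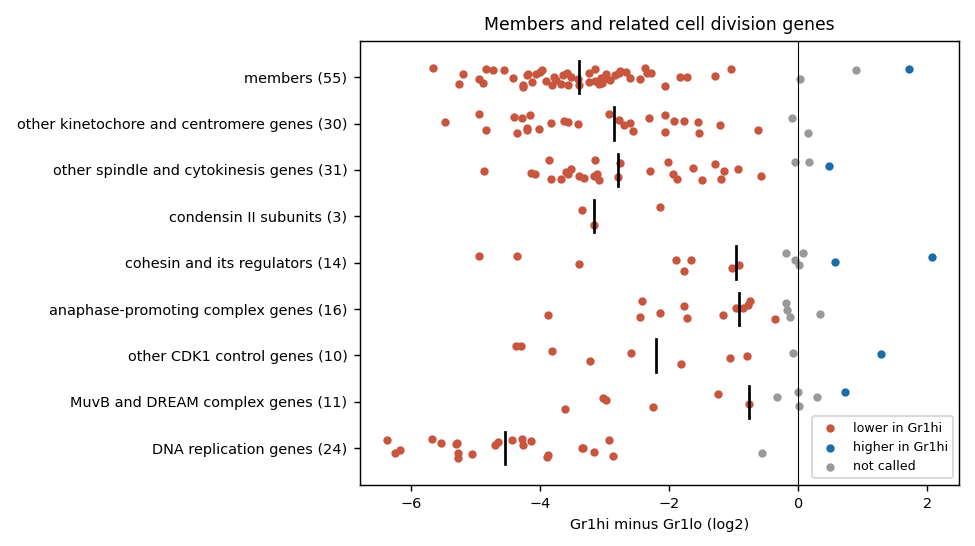
Difference between the groups (Gr1hi minus Gr1lo, log2, x axis) of each tested gene in the 55 mitotic genes and in 8 lists of related genes (y axis, with the number tested), coloured by call, with a black bar at each median. Medians run from -4.54 in DNA replication genes to -0.76 in the MuvB and DREAM list, and 6 points are called higher, among them Pttg1.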

How the data were processed

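Total RNA (100 ng) was labelled with biotin for Affymetrix 3' arrays, per the labels' protocols. The authors deposited log2 values, 1 per probe set and array. The submitters' processing notes name GCRMA, whose version is not given in the sources used here. Replicates were not pooled in the table, which had 45101 probe sets and no detection calls. The platform annotation gave 34945 probe sets 1 gene symbol, 932 several and 9160 none, 64 controls aside. Names were checked against RefSeq GRCm38.p6, which held 18031 of 18193 genes and changed 0 symbols.

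Genes with at least 3 of 6 arrays above that array's 40th percentile were kept (12739). The groups were compared with limma 3.58.1 (R 4.3.3; lmFit and trended eBayes, 4 residual and 5.11 prior degrees of freedom), two-sided, with Benjamini-Hochberg adjustment over all kept genes. Probe sets were also fitted singly. On simulated data for this comparison (12739 genes, 50 changed at each size) log2 changes of 0.5, 1, 2 and 4 were recovered in 16%, 70%, 88% and 100%, with 6 false calls. The simulation changed far fewer genes than the 7179 called in the data, and it shuffled SDs among genes. Its rates therefore need not hold for the data. Summaries and figures used Python 3.11.15, pandas 2.3.3 and matplotlib 3.10.9. The members and lists were chosen with earlier results of these data known. Named genes were the 55, called genes that went against their list, condensin II, and up to 4 genes per list with small p. Mad1l1, Cdc25a, Arpp19, Mastl, Fzr1, Smc3, Rad21, Mybl2, Lin37, Lin52 and Lin54 were added for their roles after their values were seen. A summed marker level is log2 of the sum of the unlogged values. Alternatives covered the filter, the probe set, the variance model, the scaling, the threshold, a replicate block and each array left out.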

Additional observations from a re-analysis of the deposited data

How the results depend on the processing

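Of the alternatives tried, none changed the count of division genes that fell by more than 1 (51 or 52 of those tested). Leaving out each array in turn gave 52 lower, 1 to 2 higher, a median difference between -3.50 and -3.15, 112 to 115 related genes lower and 4 to 5 higher, and 6440 to 6786 called genes overall. The median difference was -3.14 with the mean of each gene's probe sets, -2.72 under centring on the kept genes' median, -3.65 under centring on the hybridization controls and -3.17 without both replicate 3 arrays. With that first centring 3 of the 55 were higher (Pttg1, Cdc25b and Kif15), and 2 (Pttg1 and Cdc25b) with the filter at the 60th percentile, repeated quantile normalization, array weights or the replicate block. Related genes called higher numbered 21 with the first centring, 3 with the second, 3 without both replicate 3 arrays and 2 against a 1.5-fold difference, where 3774 genes were called in all. Kif15, at background, changed sign with repeated quantile normalization (-0.028), the hybridization controls (-0.23) and array weights (-0.0060), and ranged from -0.032 to 0.069 with 1 array left out; the cause was not tested. With the replicate block 52 of the 55 fell, 7059 genes were called, and Cdc25b passed the test (adjusted p = 0.0106). Deviations of same-numbered arrays from their group means correlated at 0.17, 0.0043 and 0.15, and the main fit took no pairs. Xist was high on both replicate 3 arrays only, so whether same-numbered arrays share a source is not known. The first centring gave 2313 lower and 8354 higher calls over all genes and the second 4848 and 1861, against 4051 and 3128. Without counts or detection calls, background limits what Kif15 and Foxm1 can show. Some of the deepest falls ended at low Gr1hi means, as in Cenpk (4.28), Bora (4.30) and Ttk (4.22), beside a background of 2.77. How far background sets the size of those falls was not tested.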
